A study of Mus musculus with 6 samples.

Results

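The genes described here encode the proteins that join epithelial cells to each other: 25 claudins, 9 other tight junction proteins, 23 cadherins, 9 desmosomal cadherins, 6 desmosomal plaque proteins and 20 connexins. They were chosen by symbol from the rows common to both deposited tables, which gave 92 of 23420 genes. RNA had been sequenced from the luminal layer of the pregnant mouse uterus, taken by laser microdissection, and from blastocysts flushed from the uterine horns, all at 8 pm on day 4 of pregnancy. Females were Lif-floxed/floxed and given PBS (control), Lif-floxed/floxed Ltf-Cre/+ and given PBS (Lif eKO), or Lif-floxed/floxed Ltf-Cre/+ and given recombinant Lif (rLif), 20 µg per head at 10 am and 6 pm, the second 2 h before dissection. Ltf-Cre acts in the uterine epithelium, so the stroma of every female kept its Lif gene. All 3 embryo libraries carry the genotype Lif-floxed/+, so the embryos differed by mother and not by their own labelled genotype. The ages of the females were not given in the sources used here. Each of the 6 groups was 1 library of pooled material, so no difference has a replicate check and no p-value is given.

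Tight junctions seal the space between epithelial cells, and the claudins present set which ions pass. Adherens junctions couple cells through cadherins bound to catenins, desmosomes tie the keratin network of neighbouring cells together, and gap junctions are channels of connexins that pass ions and small molecules between cells. In the uterus the luminal epithelium must remodel its contacts when a blastocyst attaches. In the blastocyst the trophectoderm needs tight junctions to hold the fluid of the cavity.

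The windows around the transcription starts of the genes on which the luminal results turn are shown first, each 250 bases before to 50 after the start (RefSeq, GRCm38.p6). Cldn10 has 2 starts in RefSeq, Gjb2 and Cldn22 have 1 window each, and the Cldn7 window is shown because it holds a STAT match. Capitals mark TTCNNNGAA, the letters read by STAT factors that act below the Lif receptor, or GGGCGG, a GC box, on either strand.
Cldn10 (chr14:118787621-118787920, plus strand): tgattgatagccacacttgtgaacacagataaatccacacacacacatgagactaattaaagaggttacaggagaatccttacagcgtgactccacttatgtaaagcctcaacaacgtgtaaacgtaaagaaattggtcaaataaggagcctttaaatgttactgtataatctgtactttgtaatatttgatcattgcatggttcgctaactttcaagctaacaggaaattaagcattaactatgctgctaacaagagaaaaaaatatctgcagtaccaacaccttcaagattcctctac
Cldn10 (chr14:118854700-118854999, plus strand): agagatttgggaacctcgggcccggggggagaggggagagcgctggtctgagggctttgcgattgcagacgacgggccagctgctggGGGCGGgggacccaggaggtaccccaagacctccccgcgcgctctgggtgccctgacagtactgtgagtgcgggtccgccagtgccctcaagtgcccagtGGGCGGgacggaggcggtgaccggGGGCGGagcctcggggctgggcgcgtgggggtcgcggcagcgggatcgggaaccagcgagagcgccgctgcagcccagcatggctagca
Gjb2 (chr14:57104653-57104952, minus strand): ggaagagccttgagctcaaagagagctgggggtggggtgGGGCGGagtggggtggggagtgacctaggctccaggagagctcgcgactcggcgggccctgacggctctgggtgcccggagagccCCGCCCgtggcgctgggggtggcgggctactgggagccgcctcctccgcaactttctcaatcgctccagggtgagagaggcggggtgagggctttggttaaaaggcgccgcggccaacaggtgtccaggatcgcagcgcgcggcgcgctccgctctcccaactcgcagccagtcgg
Cldn22 (chr8:47824232-47824531, plus strand): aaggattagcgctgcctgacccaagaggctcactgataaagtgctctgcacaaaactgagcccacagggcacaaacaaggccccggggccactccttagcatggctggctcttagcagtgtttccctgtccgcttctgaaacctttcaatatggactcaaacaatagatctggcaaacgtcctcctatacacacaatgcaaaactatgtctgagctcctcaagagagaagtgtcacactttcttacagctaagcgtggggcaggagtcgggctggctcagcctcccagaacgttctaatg
Cldn7 (chr11:69965171-69965470, plus strand): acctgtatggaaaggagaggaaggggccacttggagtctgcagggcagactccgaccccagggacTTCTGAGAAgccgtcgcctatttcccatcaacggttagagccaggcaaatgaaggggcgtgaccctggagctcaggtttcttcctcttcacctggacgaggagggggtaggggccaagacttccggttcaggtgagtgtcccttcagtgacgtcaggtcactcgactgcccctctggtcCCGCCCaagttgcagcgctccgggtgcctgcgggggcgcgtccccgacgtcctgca
RefSeq windows were found for 54 of the 92 genes. TTCNNNGAA, which reads the same on both strands, was in 8.3% of 32851 windows of all genes and in 4 of the 72 junction gene windows. Those windows belonged to 3 junction genes, Cldn7, Cldn12 and Cldn14. In the Cldn7 window shown it began 185 bases before that transcription start. The gene's row begins before the window, at chr11:69964779, so this need not be the only Cldn7 start. None of the 15 junction genes with a window that were called in a luminal comparison held TTCNNNGAA. The hormone response element bound by steroid receptors, searched on both strands, was in 0.475% of all windows and in 0 junction gene windows. The GC box, searched after the values were seen, was in 35.7% of all windows and in 34 of the 72 junction gene windows. These belonged to 30 junction genes, 8 of them among the 15. A gene with several windows has more chances of a match, so counts of genes are not set against shares of windows. The first Cldn10 window held 36% G and C and no GC box, and the second 72% with 3, against a median of 52.7% over all windows. Gjb2 held 70% with 2 GC boxes, Cldn22 51.3% and Cldn7 62.3%. None of the matches overlapped another. The counts per gene do not separate the Cldn10 starts.

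Total counts were 23850565 to 28460465 in the luminal libraries and 18996158 to 19638852 in the blastocyst libraries, and the junction genes took 0.9725% to 1.187% and 0.8049% to 0.8122% of them. A sum of 10 counts or more over a tissue's 3 libraries was reached by 58 junction genes in the luminal layer and by 51 in blastocysts. Of these, 44 passed in both, 14 in the luminal layer alone and 7 in blastocysts alone. Another 27 passed in neither, 11 of them with 0 counts in all 6 libraries. Lif itself had 0, 28 and 0 counts in the control-labelled, eKO-labelled and rLif-labelled luminal libraries, an order that goes against the labels. The study describes Lif in the uterine glands before attachment, and the gland marker Foxa2 had 3, 0 and 10 counts in these libraries. So few Lif counts cannot check the labels in either direction. Each luminal direction below is therefore between the libraries labelled so. In blastocysts Lif had 1447, 1736 and 1250 counts. The luminal libraries held 0 counts of Pou5f1 and Nanog, defining genes of the inner cell mass. The other 2 genes of that marker list were counted there, Sox2 at 8, 19 and 0 and Klf2 at 852, 484 and 266. All 8 luminal epithelial markers were present in all 6 libraries, Krt8, Krt18 and Epcam being genes that trophectoderm also uses.

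A gene was called higher or lower when the exact 95% interval of the ratio of its 2 counts, scaled to the library sizes, lay wholly beyond a log2 ratio of 1 (2-fold). Levels set side by side between genes are in RPKM, counts scaled to exon length and library size. The intervals, and the floor of 3 counts used where a library had 0, cover counting error only, since PCR reads without molecular identifiers are not independent molecules.

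**Figure D1:**
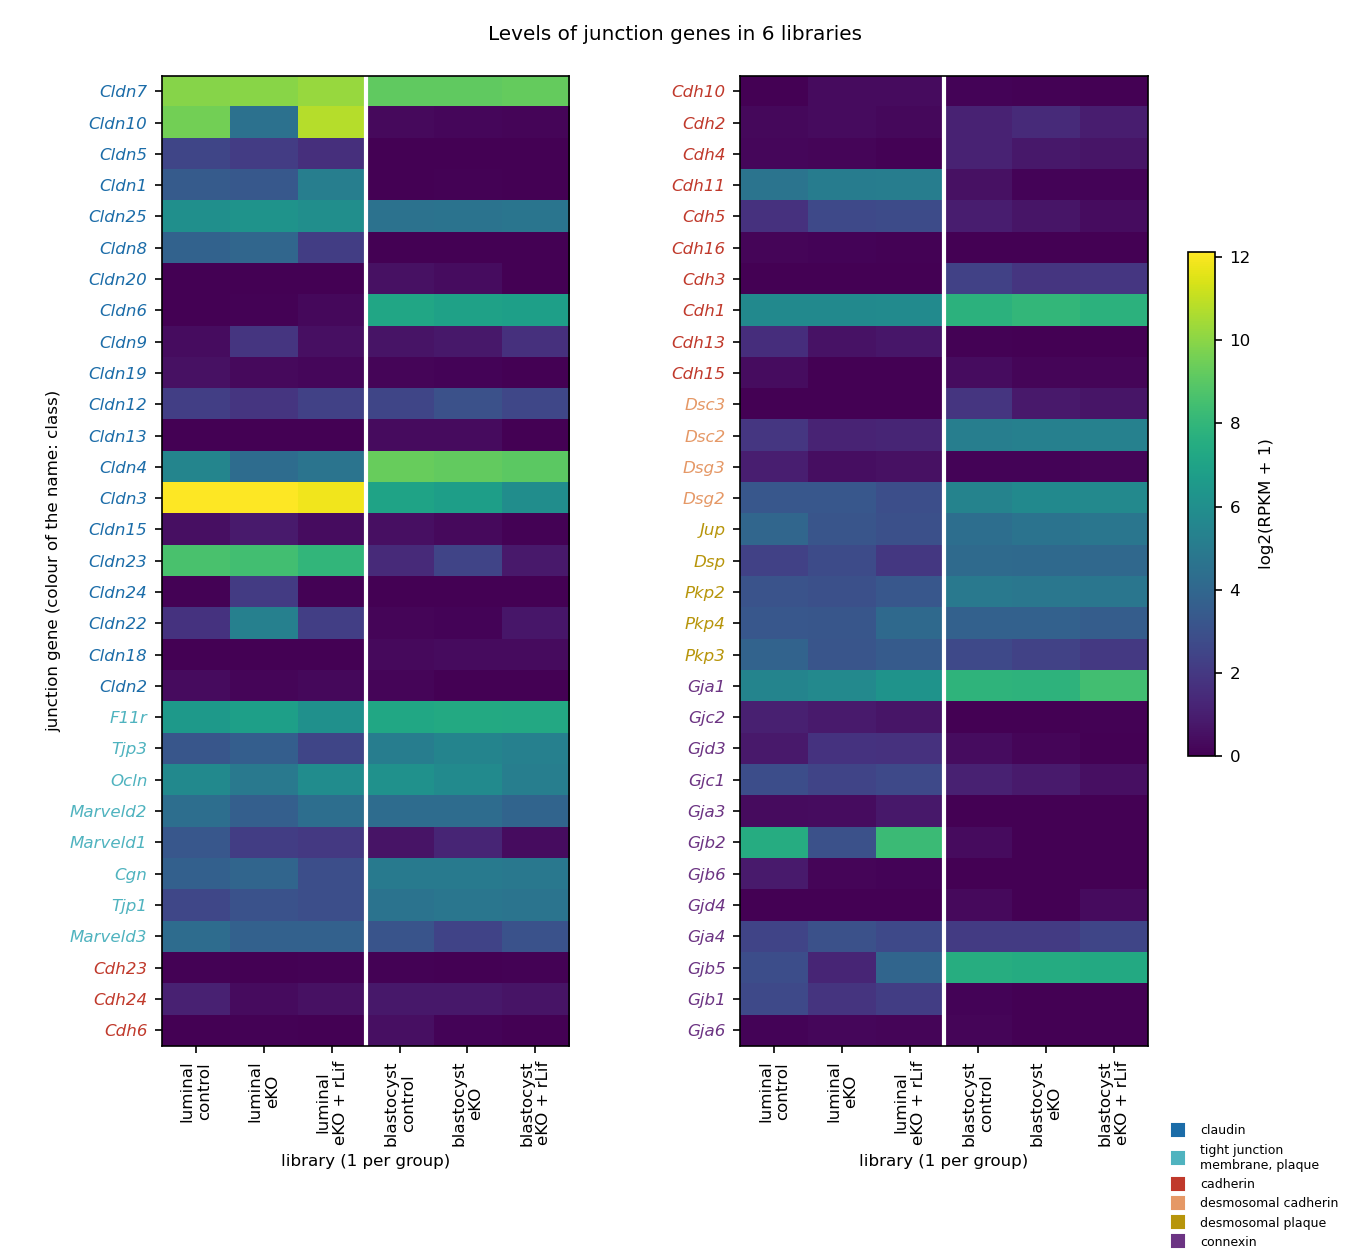
Levels of 62 of the junction genes that passed the count minimum in at least 1 tissue, as log2(RPKM + 1) by colour, with 1 column for each of the 6 libraries and the names coloured by class. Cldn3 is the brightest row in the luminal layer at 3773 to 4465 RPKM, Cldn6 and Cdh3 are near 0 there and present in blastocysts, and Cldn10 and Gjb2 are dim in the middle luminal column.

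In the luminal layer, claudins made up most of the junction transcripts. Their summed level was 6719 RPKM in the control-labelled library, 6002 in the eKO-labelled library and 7161 in the rLif-labelled library (eKO given rLif). Cldn3, a sealing claudin, held 66.1%, 74.4% and 52.7% of that sum, with levels of 4440, 4465 and 3773 RPKM. Its exons overlap those of Wbscr25, so its count is uncertain. Cldn7, an epithelial claudin found on lateral membranes as well as in tight junctions, stood at 976.3, 995 and 1217 RPKM. Cldn23 followed at 405.1, 351.3 and 252.7 RPKM. For these 3 claudins the 3 libraries lay within 2-fold of each other, with log2 ratios of eKO to control of 0.01, 0.03 and -0.21.

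Cldn10 and Gjb2 had the lowest log2 ratios of eKO to control among the 58 junction genes analysed. Fewer cells of a type and less RNA per cell cannot be told apart in these pools, here or in any result that follows. Cldn10 encodes a claudin that forms ion pores, made in forms with different first exons (chr14:118787871-118874525, GRCm38). Its counts were 27483 in the control-labelled, 911 in the eKO-labelled and 67012 in the rLif-labelled library. The eKO-labelled library was thus 34.3-fold lower than control (log2 ratio -5.10, interval -5.20 to -5.01), and the rLif-labelled library was 81.1-fold higher than eKO (log2 ratio 6.34, interval 6.25 to 6.44) and 2.36-fold higher than control. In share of summed claudin RPKM, Cldn10 went from 11.2% in the control-labelled library to 24.9% in the rLif-labelled library, while in the eKO-labelled library it was outside the top 5, at 21.94 RPKM. Without Cldn10 the summed claudin levels were 5967, 5980 and 5381 RPKM.

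Gjb2 encodes connexin 26 (chr14:57098602-57104702, GRCm38), a gap junction protein known in uterine epithelium around implantation. Its counts were 10938, 492 and 19342 in the control-labelled, eKO-labelled and rLif-labelled libraries. The eKO-labelled library was 25.3-fold lower than control (log2 ratio -4.66, interval -4.79 to -4.53). The rLif-labelled library was 43.4-fold higher than eKO (log2 ratio 5.44, interval 5.31 to 5.57), and its ratio to control, log2 0.78 with an interval of 0.74 to 0.81, was not called. As with Cldn10, the eKO-labelled library stood below both others. Gjb2 made 63.9% of summed connexin RPKM in the control-labelled library, 8.2% in the eKO-labelled library and 66.2% in the rLif-labelled library. Gja1, connexin 43, the main connexin of stroma and decidua, made 58.5% in the eKO-labelled library.

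The summed level of the 20 connexins was 282.2, 86.9 and 467.1 RPKM in the control-labelled, eKO-labelled and rLif-labelled libraries. Without Gjb2 the sums were 101.9, 79.77 and 158.1 RPKM, so much of the difference was 1 gene. Of 13 connexins tested between the eKO-labelled and control-labelled libraries, 5 were called lower, Gjb2, Gjb5 and Gjb6 among them, and 0 higher. Of all 15694 genes 9.15% were called lower and 8.08% higher in that comparison. Between the rLif-labelled and eKO-labelled libraries 4 of the 13 were called higher and 0 lower, where 7.88% and 7.77% of all genes were. Between the rLif-labelled and control-labelled libraries 1 was called each way, Gjb5 higher and Gjb6 lower, beside 4.12% and 5.04% of all genes. The call of Gjb5 was lost when total counts were the library sizes. Because the 3 comparisons share libraries, their values are given side by side and not as separate support.

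Gjb5, a connexin known from stratified epithelia and trophoblast, had 270, 69 and 651 counts in the control-labelled, eKO-labelled and rLif-labelled libraries. The eKO-labelled library was lowest (log2 ratio to control -2.15, interval -2.56 to -1.77) and the rLif-labelled library highest (log2 ratio to eKO 3.38, interval 3.02 to 3.76). The rLif-labelled library was also called higher than control (log2 ratio 1.23, interval 1.02 to 1.44), but scaled by total counts that ratio was 1.05 and was no longer called. Gja4 (connexin 37, known from endothelium) had 198, 337 and 238 counts and was called in none of the 3 comparisons.

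Gjb6 (connexin 30) lies 18598 bases from Gjb2 and did not show the same order. Its counts were 45, 8 and 4, so that both other libraries were called lower than control, with log2 ratios of -2.68 for eKO and -3.54 for rLif. Gja3, on the other side of Gjb2, had 19, 25 and 55 counts and was not called. Gja1 had 3441, 4533 and 6058 counts, with a log2 ratio of 0.21 for eKO to control and 0.77 for rLif to control, both within 2-fold. Gjc1 (connexin 45), at 469, 386 and 404 counts, also lay within 2-fold. Gjb1 (connexin 32) had 203, 107 and 143 counts and Gjd3 16, 57 and 50, and neither was called, their intervals for eKO to control including the limit.

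**Figure D2:**
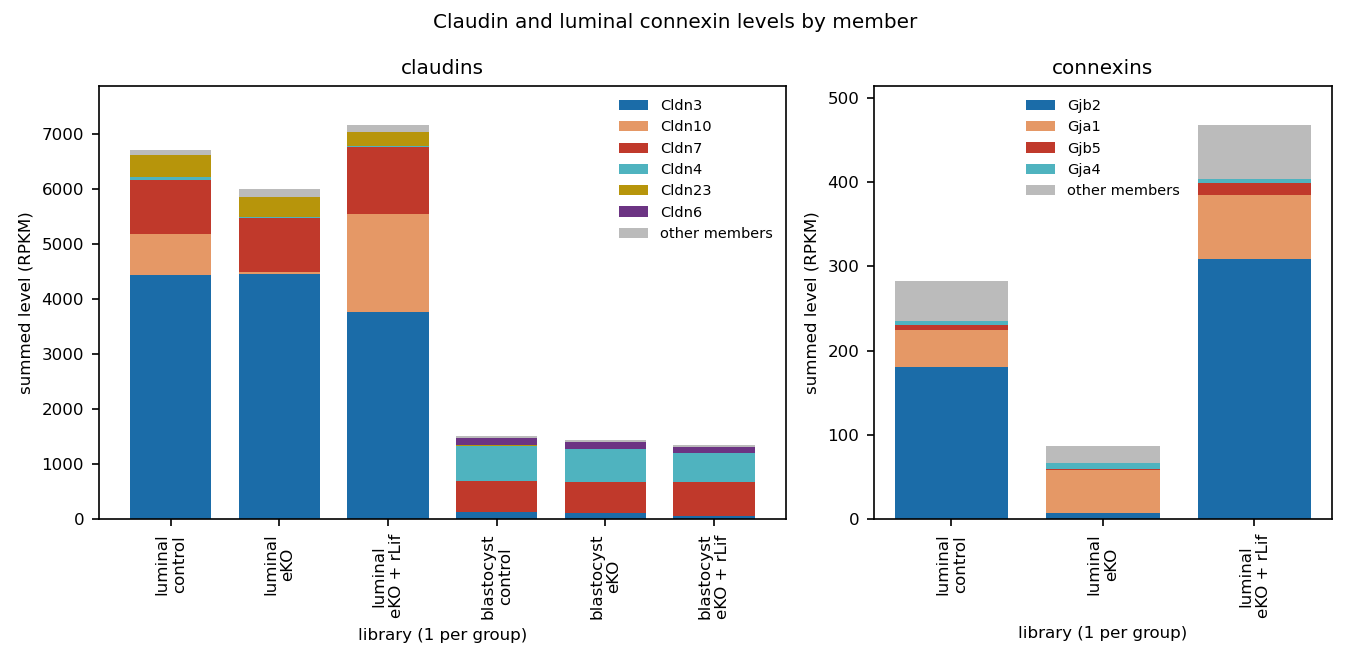
Stacked levels in RPKM of the claudins in the 6 libraries (left) and of the connexins in the 3 luminal libraries (right), with leading members by colour and all others summed in grey. Luminal connexins sum to 282.2, 86.9 and 467.1 RPKM, of which Gjb2 makes 63.9%, 8.2% and 66.2%, and Cldn10 is a visible band in the outer luminal claudin bars alone.

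Some claudins went the other way. Cldn22 (chr8:47824482-47825475) had 61, 1069 and 99 counts in the control-labelled, eKO-labelled and rLif-labelled libraries. The eKO-labelled library was 15.4-fold higher than control (log2 ratio 3.95, interval 3.57 to 4.34) and the rLif-labelled library 9.79-fold lower than eKO (log2 ratio -3.29). Cldn24 lies 1676 bases before it on the same strand and had 1, 62 and 1 counts, a 54.5-fold difference between eKO and control whose log2 interval ran from 3.24 to 11.09. Cldn9 had 12, 110 and 16 counts, with log2 ratios of 3.01 for eKO to control and -2.64 for rLif to eKO. In each of the 3 the eKO-labelled library stood alone above both others. In RPKM they were minor claudins, Cldn22 reaching 37.45, Cldn24 3.256 and Cldn9 2.654 in the eKO-labelled library, against 4465 for Cldn3.

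Cldn1 and Cldn8, sealing claudins, differed in the rLif-labelled library. Cldn1 had 835, 852 and 3030 counts, 3.92-fold higher in the rLif-labelled library than in eKO (log2 ratio 1.97, interval 1.86 to 2.08) and 3.52-fold higher than in control. Cldn8 had 789, 1019 and 225 counts, 4.11-fold lower in the rLif-labelled library than in eKO (log2 ratio -2.04) and 3.62-fold lower than in control. For both genes the control-labelled and eKO-labelled libraries lay within 2-fold. Cldn4 was lower in the eKO-labelled library, with 2047, 955 and 1149 counts (log2 ratio -1.29, interval -1.40 to -1.17), and the rLif-labelled library, at a log2 ratio of 0.41 to eKO, remained within 2-fold of it. Cldn5, the claudin of endothelium, had 172, 140 and 78 counts and was not called.

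Among the other tight junction proteins no gene was called higher. Ocln (occludin) had 4285, 2689 and 4845 counts, with log2 ratios of -0.86 for eKO to control and 0.99 (interval 0.92 to 1.06) for rLif to eKO, just inside the limit. Marveld2 (tricellulin), 43458 bases from Ocln on the same strand, had 1687, 1153 and 1747 counts, with log2 ratios of -0.73 and 0.74. In both, the eKO-labelled library was lowest, without being called. Marveld1 had 671, 321 and 240 counts and was called lower in the eKO-labelled library (log2 ratio -1.25) and in the rLif-labelled library (-1.53) than in control.

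In the cytoplasmic plaque, 2 genes were called. Cgn (cingulin), a plaque protein that binds the ZO proteins and myosin, had 1555, 2066 and 843 counts and was lower in the rLif-labelled library than in eKO (log2 ratio -1.15, interval -1.27 to -1.04). Tjp3 (ZO-3) had 641, 980 and 374 counts, also lower in the rLif-labelled library than in eKO (log2 ratio -1.25), and its exons overlap those of Apba3. Tjp1 (ZO-1) had 907, 1468 and 1205 counts and lay within 2-fold throughout. F11r (JAM-A), the most abundant of the 9, stood at 94.8, 113.4 and 67.67 RPKM.

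Cadherin 1 was nearly level. Cdh1 (E-cadherin), the cadherin of epithelia, had 5859, 6638 and 6224 counts, with log2 ratios of -0.01 (interval -0.06 to 0.05) for eKO to control and 0.05 for rLif to eKO. Cdh11, a cadherin of mesenchyme, was next at 24.55, 33.52 and 33.95 RPKM, against 52.59, 52.38 and 54.17 for Cdh1. It had 2613, 4059 and 3727 counts, within 2-fold. Cdh5 (VE-cadherin), of endothelium, had 232, 623 and 602 counts and was called higher in eKO (log2 ratio 1.24, interval 1.02 to 1.46) and rLif (1.33) than in control. Scaled by total counts, the 2 ratios were 1.17 and 1.15 and were no longer called.

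Cdh11 and Cdh5 are known from cells other than epithelium, and markers of such cells also differed between the libraries. The 4 endothelial markers left after Cldn5 and Cdh5 summed to 14.75, 19.58 and 22.57 RPKM, none at 0. Tek, with 124, 198 and 897 counts, carried the last of these sums, and without it they were 13.7, 18.09 and 15.17 RPKM, while Pecam1 had 332, 305 and 275 counts. The 8 stromal markers summed to 245.5, 352.5 and 240.6 RPKM, none at 0, and their defining genes Col3a1 and Dcn had 5719, 14377 and 8335, and 5324, 7648 and 5163 counts. The 6 smooth muscle markers summed to 34.66, 23.68 and 14.86 RPKM. The 6 immune markers found summed to 786.9, 664 and 622.7 RPKM, most of it Lyz2. Without Lyz2 the immune sums were 82.41, 84.62 and 103.3 RPKM, so their order was reversed. The part of these cells in the junction results was not tested.

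Epithelial markers themselves were not level. The 8 luminal epithelial markers summed to 2934, 6072 and 3202 RPKM, with Calb1 at 13579, 175456 and 30828 counts and Krt19 at 8537, 57150 and 9081, and Epcam, at 25283, 16397 and 35284, was lowest in the eKO-labelled library. The 4 glandular markers found summed to 6.012, 3.881 and 15.13 RPKM, with Foxa2 at 3, 0 and 10 counts. The part of gland cells in the junction results was not tested.

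Lowly counted cadherins gave the remaining calls. Cdh13 (T-cadherin), which lacks a transmembrane segment, had 116, 33 and 41 counts and was called lower than control in both other libraries, with log2 ratios of -2.00 and -1.54. Cdh24 had 80, 23 and 34 counts and was called lower in eKO (-1.98). Cdh15 (M-cadherin, of muscle) had 24, 2 and 0 counts, lower in eKO by a log2 ratio of -3.77 (interval -6.90 to -1.76) and at least 8.25-fold lower in the rLif-labelled library. Cdh10 had 2, 28 and 26 counts, higher in eKO by a log2 ratio of 3.62 (interval 1.63 to 6.74) and in rLif by 3.66 (interval 1.66 to 6.78). All 4 were under 3 RPKM in each luminal library, Cdh13 being highest at 2.006.

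Desmosomal transcripts were low in the luminal layer. Dsg2, the desmoglein of simple epithelia, had 1255, 1473 and 970 counts, and made 69.2% to 84% of the desmosomal cadherin sum of 12.54, 10.66 and 8.327 RPKM. Its partner Dsc2 had 315, 167 and 157 counts, a log2 ratio of -1.10 for eKO to control whose interval, -1.38 to -0.83, included the limit. Dsg3 was called lower in eKO, with 108, 41 and 49 counts (log2 ratio -1.58, interval -2.14 to -1.05).

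In the desmosomal plaque, Jup (plakoglobin), which also serves adherens junctions, had 1898, 1160 and 876 counts. It was called lower in the rLif-labelled library than in control (log2 ratio -1.16, interval -1.28 to -1.04), and its eKO ratio of -0.90 was within 2-fold. Dsp (desmoplakin), which links desmosomes to keratin, had 972, 1603 and 715 counts, with a log2 ratio of -1.02 (interval -1.15 to -0.90) for rLif to eKO that was not called. Scaled by total counts that ratio was -1.13 and was called. Pkp4 had 1020, 1133 and 1990 counts, highest in the rLif-labelled library (log2 ratio to eKO 0.95), and Pkp2 544, 560 and 653. Pkp3 had 1025, 707 and 815 counts. No desmosomal plaque gene was called between eKO and control.

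**Figure D3:**
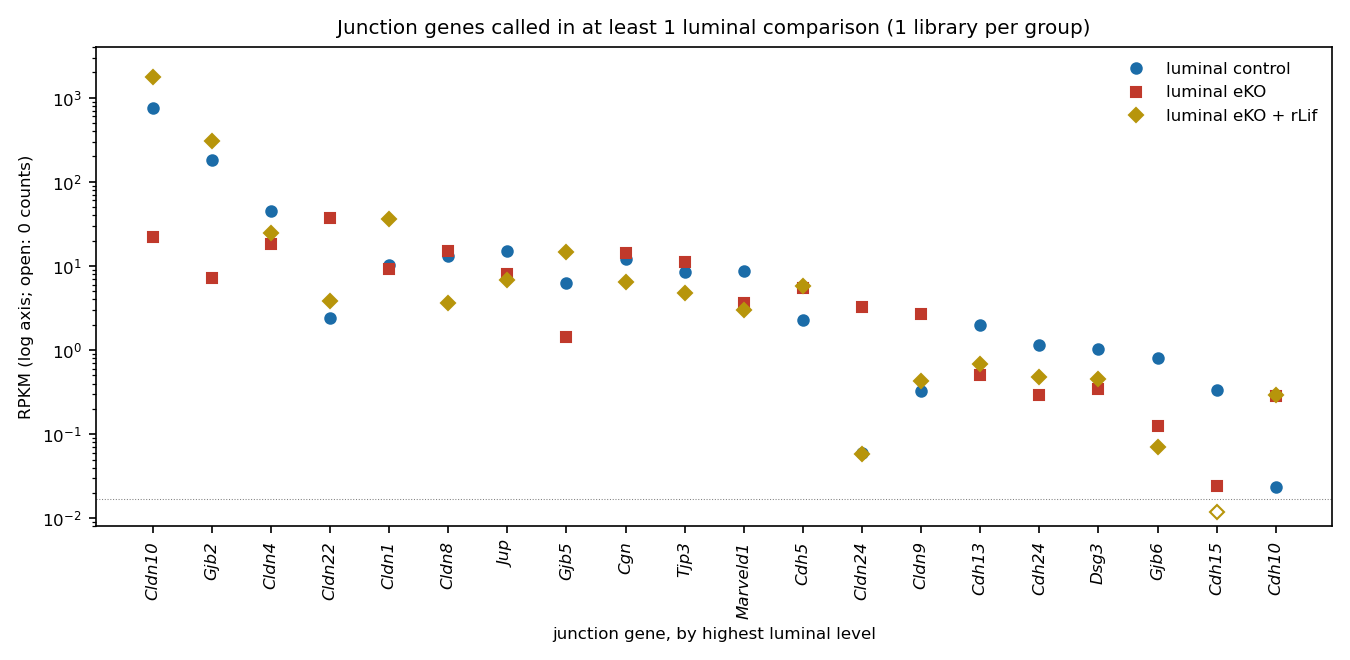
RPKM on a log axis of 20 of the junction genes called in at least 1 of the 3 luminal comparisons, with 1 point for each library and open points for 0 counts. Cldn10, Gjb2 and Gjb5 have their lowest point in the eKO-labelled library, Cldn22, Cldn24 and Cldn9 have their highest there, and Cldn1 and Cldn8 separate only in the rLif-labelled library.

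Over the 58 genes, 5 were called higher in the eKO-labelled library than in the control-labelled (8.62%, against 8.08% of all 15694 genes) and 12 lower (20.7%, against 9.15%). Their median log2 ratio was -0.122, beside 0.001 over all genes. Between the rLif-labelled and eKO-labelled libraries 6 were called higher (10.3%, against 7.88%) and 6 lower (10.3%, against 7.77%), with medians of 0.004 and -0.004. Between the rLif-labelled and control-labelled libraries 5 were called higher (8.62%, against 4.12%) and 6 lower (10.3%, against 5.04%), with medians of -0.013 and 0.007. The counts of genes higher in the eKO-labelled library, and of those differing between rLif and eKO, were near the background, and a count of a few genes is read no further.

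By class, between the eKO-labelled and control-labelled libraries 3 of 17 claudins were called higher and 2 lower, 1 of 9 tight junction membrane and plaque genes lower, 2 of 11 cadherins higher and 3 lower, and 1 of 3 desmosomal cadherins lower. In that comparison 8.08% of all genes were called higher and 9.15% lower. Of the 41 junction genes not called in it 34 had a ratio within 2-fold. In all, 22 genes (37.9%, against 26.6% of all genes) were called in at least 1 luminal comparison and 36 in none. Of the 26 that passed 10 RPKM in at least 1 luminal library 12 were among the called (46.2%, against 23.3% of all genes at that level). A gene can pass that level through the library in which it is high, as Cldn22 did at 2.431, 37.45 and 3.825 RPKM. This share therefore depends in part on the differences themselves and is read no further.

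**Figure D4:**
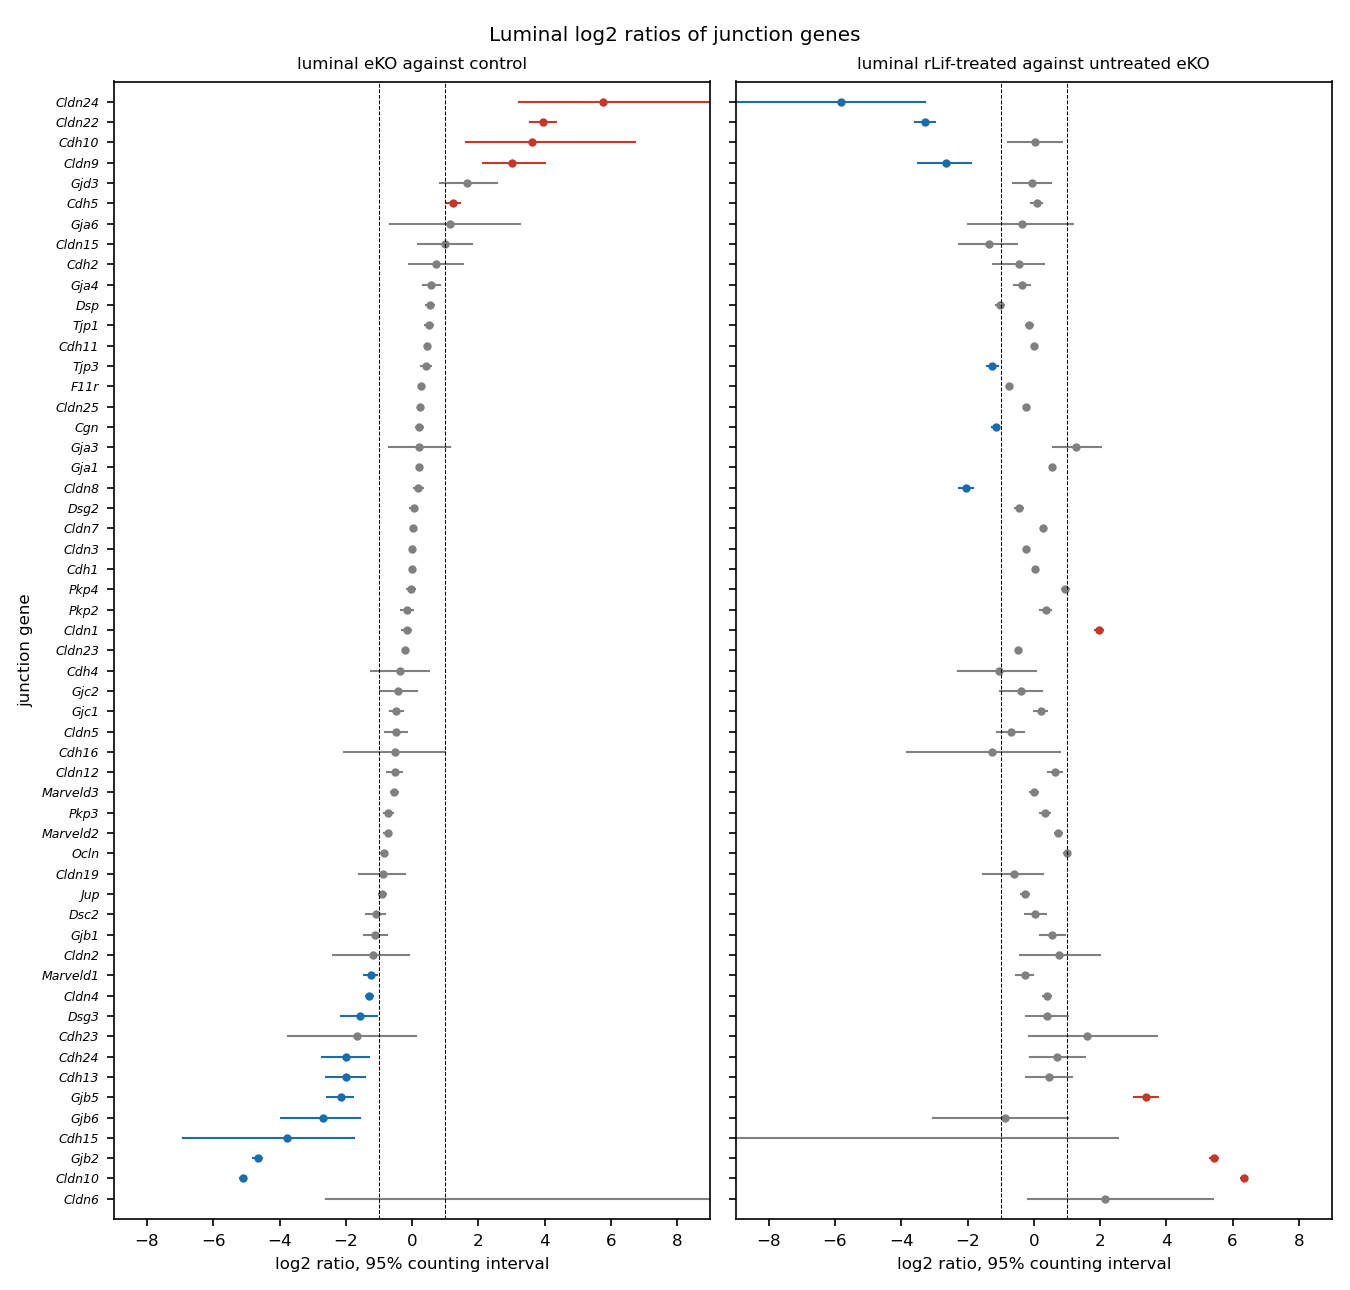
Log2 ratios of 55 of the luminal junction genes with their 95% counting intervals, eKO to control on the left and rLif-treated to untreated eKO on the right, ordered by the left ratio, with red for called higher, blue for called lower and dashed lines at log2 ratios of -1 and 1. Genes with 0 counts in a library have a line and no point, as Cldn6 does at the bottom left, and intervals are drawn to -9 and 9. The 2 panels share the eKO-labelled library, so a gene high or low in it takes opposite sides.

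Genes of the same structures outside the symbol rule were followed as a list of partners, 41 of which passed in the luminal layer. In eKO against control 1 was called higher (2.44%, against 8.08% of all genes) and 4 lower (9.76%, against 9.15%). Mpdz, a scaffold of tight junctions, had 88, 268 and 94 counts. Pard6b, of the polarity complex, had 1117, 366 and 942 counts, called lower in eKO (log2 ratio -1.80) and higher in rLif than in eKO (1.51). Plekha7, a plaque protein of adherens junctions, was at a log2 ratio of -1.48, Amotl2 of -1.44 and Ildr2, with 26 and 5 counts, of -2.56.

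Between the rLif-labelled and eKO-labelled libraries 4 partners were called higher (9.76%, against 7.88% of all genes) and 3 lower (7.32%, against 7.77%), both near the shares of all genes. Cgnl1 (paracingulin), a relative of cingulin, had 3971, 2623 and 8653 counts (log2 ratio 1.86 for rLif to eKO), the opposite side from Cgn. Epcam, which binds Cldn7, had 25283, 16397 and 35284 counts (log2 ratio 1.25), and Cxadr, an adhesion receptor of tight junctions, was at 1.24. The 3 lower were Mpdz (-1.37), and Ctnnd2 and Panx2, each with 10 counts in eKO and 0 with rLif. Between rLif and control 2 were called higher, Jam2 (9427 and 25086 counts in control and rLif) and Cgnl1 (4.88%, against 4.12% of all genes), and 1 lower, Amotl2 (2.44%, against 5.04%). The partners' median log2 ratios were -0.125, 0.038 and -0.111.

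In blastocysts 44 of the 51 junction genes that passed had also passed in the luminal layer, but some classes were led by other members. Cldn4 and Cldn7 led the claudins, with 638.6, 594 and 528.7 RPKM and 569.3, 567.7 and 616.1 RPKM in embryos of control, eKO and rLif-treated eKO mothers. Cldn6, a claudin of early embryonic epithelia, was at 143.3, 123.3 and 114.4 RPKM. The claudin sum was 1514, 1434 and 1354 RPKM, of which Cldn4 made 42.2%, 41.4% and 39%. Among the connexins Gja1 stood at 234.5, 231 and 353.6 RPKM and Gjb5 at 185, 173.3 and 166.4.

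The adhesion classes of blastocysts were led by Cdh1, at 222.1, 258.3 and 220.9 RPKM, or 95.8% to 97.6% of the cadherin sum. F11r, at 147.9, 164.4 and 158.3 RPKM, led the other tight junction genes. Dsg2 stood at 41.85, 52.17 and 50.74 RPKM and Dsc2 at 35.4, 37.78 and 39.35. Pkp2 led the plaque at 28.87, 27.45 and 25.96 RPKM, ahead of Jup at 20, 23.78 and 25.69. Of the 23 genes above 10 RPKM in at least 1 blastocyst library, 1 was called in a comparison between blastocyst libraries. That was 4.35%, against 1.97% of all genes at that level, which a gene can likewise pass through the library in which it is high.

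The called gene was Cldn3. Its exons overlap those of Wbscr25, so its count is uncertain. It is far more abundant in the luminal layer, and the part of maternal cells in its call was not tested. Cldn3 had 3144, 2756 and 1499 counts in embryos of control, eKO and rLif-treated mothers. It was lower in the last than in the first by a log2 ratio of -1.10 (interval -1.19 to -1.01). Ocln, with 4182, 3397 and 2216 counts, had the same order and a log2 ratio of -0.94 (interval -1.02 to -0.87) that was not called. Gja1 had 13882, 14017 and 21344 counts, with a log2 ratio of 0.61 for rLif to eKO, and Jup 1910, 2328 and 2501. Gjb5 was nearly level, with 6011, 5771 and 5511 counts.

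The other calls in blastocysts were of genes with few counts. Dsc3, a desmocollin, had 265, 80 and 64 counts, called lower than control in both (log2 ratios -1.76 and -2.08). Cdh11 had 35, 8 and 6 counts (log2 ratios -2.17 and -2.57), and Cdh6 20, 4 and 0, at least 6.8-fold lower with rLif than in control. Gjb2, the luminal connexin, was counted 12, 0 and 0 times, which puts eKO at least 4.1-fold and rLif at least 4.08-fold below control. Gjd4 had 13, 0 and 14 counts and so was called lower in eKO than in control and higher with rLif than in eKO, by at least 4.44-fold and 4.69-fold. Cldn9 had 16, 21 and 62 counts, higher with rLif than in control (log2 ratio 1.93, interval 1.12 to 2.82).

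Cldn23 and Marveld1 were called lower with rLif than in eKO, Cldn23 with 62, 167 and 27 counts (log2 ratio -2.62) and Marveld1 with 34, 83 and 20 (-2.05). Both are far more abundant in the luminal layer. Among uterine markers in the same blastocyst libraries, Calb1, with 49, 201 and 18 counts, and Lyz2, with 976, 2128 and 289, had the same order. The immune list summed to 53.02, 108.3 and 18.11 RPKM, none of its 6 genes at 0, and to 4.583, 5.264 and 4.045 RPKM without Lyz2. Other markers were in another order: Krt19 had 1401, 241 and 108 counts, Krt7 2268, 1556 and 1102, Nkg7 13, 8 and 6, and Cd3e 26, 4 and 14. For Cdh11 the stromal genes Col3a1, with 122, 60 and 28 counts, and Dcn, with 164, 84 and 51, were likewise highest in control and lowest with rLif, and the whole stromal list summed to 31, 26.91 and 25.5 RPKM, mostly Pdgfra, which embryos express. The part of maternal cells in these calls was not tested.

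Of 51 genes, 0 were called higher in embryos of eKO mothers than of control mothers (against 1.29% of all 14873 genes) and 4 lower (7.84%, against 1.86%): Dsc3, Cdh11, Gjb2 and Gjd4. With no replicates there is no test behind that 0. With rLif against eKO 1 was called higher (1.96%, against 0.914%) and 2 lower (3.92%, against 2.83%). With rLif against control 1 was called higher (1.96%, against 0.948%) and 5 lower (9.8%, against 3.99%), namely Cldn3, Cdh6, Cdh11, Dsc3 and Gjb2. The medians were -0.059, -0.066 and -0.136, beside -0.002, -0.008 and -0.005 over all genes. Among 39 partners 2 were called, Igsf5 and Jam3, both lower with rLif than in eKO (5.13%, against 2.83% of all genes). Their log2 ratios were -1.58 and -1.90.

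Between the control libraries of the 2 tissues, the member with the highest level was shared for the cadherins (Cdh1, 62.9% of the class sum in the luminal layer and 95.8% in blastocysts), the tight junction membrane and plaque genes (F11r, 41.5% and 34.9%) and the desmosomal cadherins (Dsg2, 69.2% and 52.3%). It differed for the claudins, Cldn3 in the luminal layer and Cldn4 in blastocysts, and for the desmosomal plaque, Jup and Pkp2. Of 67 junction genes, 22 were called higher in the luminal layer (32.8%, against 27% of all 17081 genes) and 21 higher in blastocysts (31.3%, against 25.1%), so both shares were near those of all genes. The median log2 ratio was -0.021, beside 0.006. Dissection and flushing differed between the tissues, and their effect cannot be told apart from that of the tissue. Of the 41 partners, 9 were called higher in the luminal layer (22%, against 27% of all genes) and 16 in blastocysts (39%, against 25.1%).

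Claudins divided by tissue. Cldn3 had 141579 counts in the luminal control and 3144 in the blastocyst control (37.7-fold), Cldn23 had 18931 and 62 (256-fold), and Cldn10 had 27483 and 7 (log2 ratio 11.68, interval 10.64 to 13.00). Cldn1 and Cldn8, with 835 and 789 luminal counts, had 0 in the blastocyst control, at least 233-fold and 220-fold lower. In the other direction Cldn4 was 12.9-fold higher in blastocysts, and Cldn6 had 4113 counts there and 0 in the luminal control. Cldn7 differed by a log2 ratio of 0.93 (interval 0.90 to 0.95), within 2-fold.

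Connexins were divided as well. Gjb2 had 10938 counts in the luminal control and 12 in the blastocyst control (log2 ratio 9.58, interval 8.77 to 10.53). Gjb5 was 26.6-fold higher in blastocysts. Gja1 was 4.82-fold higher in blastocysts.

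Of 14 cadherins 5 were called higher in blastocysts and 3 in the luminal layer, and of the 9 desmosomal genes 5 and 2. Of all genes 25.1% were called higher in blastocysts and 27% in the luminal layer, and counts in classes this small are read no further. Cdh1 was 3.81-fold higher in blastocysts. Cdh3 (P-cadherin), 46459 bases from Cdh1, had 312 counts there against 3 (log2 ratio -6.96, interval -9.24 to -5.40). Dsc2 was 11.3-fold, Dsg2 4.35-fold, Dsp 3.91-fold and Tjp1 4.18-fold higher in blastocysts, and Dsc3 had 265 counts there and 0 in the luminal layer. Cdh11, at 2613 and 35 counts, Marveld1, at 671 and 34, and Pkp3, at 1025 and 310, were called higher in the luminal layer. Cdh2 (N-cadherin) was low in both, with 21 and 111 counts, and Cdh16 had 10 and 0. Jup, Ocln, F11r and Marveld2 lay within 2-fold.

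**Figure D5:**
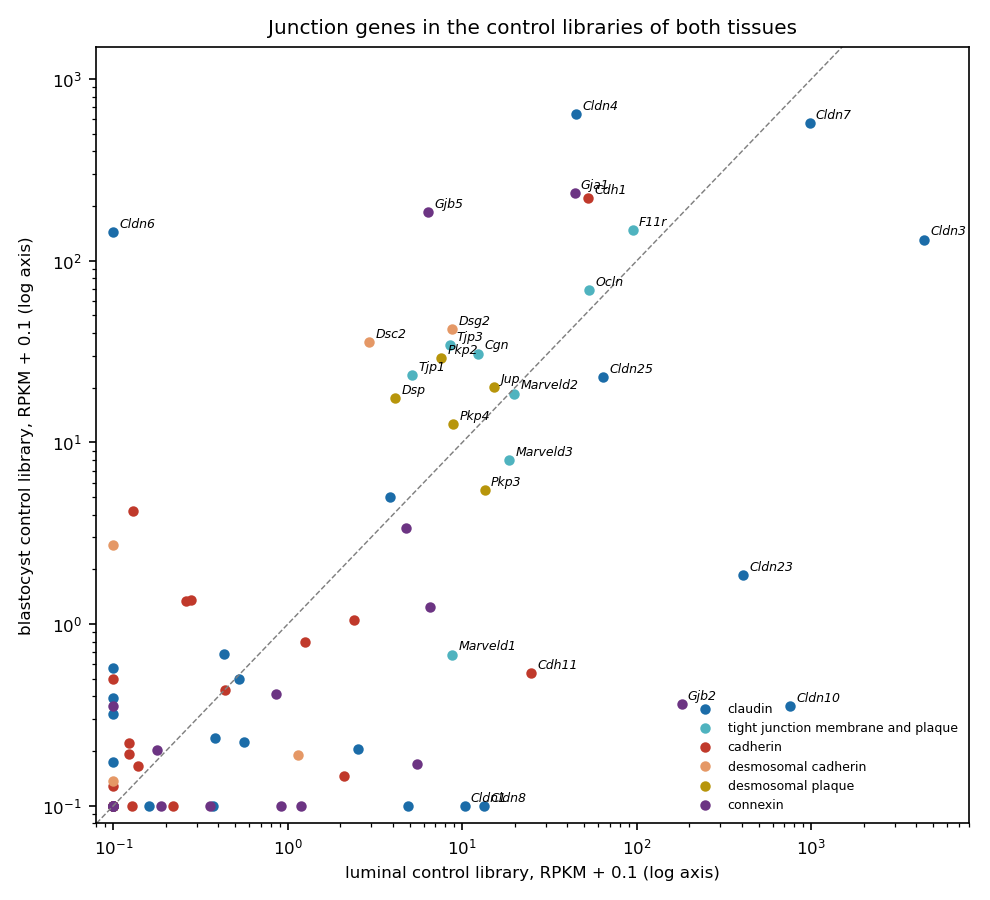
Levels of 89 of the junction genes in the luminal control library (horizontal) and the blastocyst control library (vertical), as RPKM + 0.1 on log axes, scaled within each tissue, with equal levels on the dashed line and names for genes above about 8 RPKM in either. Cldn3, Cldn10, Cldn23 and Gjb2 lie far below the line, and Cldn6, Cldn4 and Gjb5 far above it.

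Some rows need care. The row named Cldn25 lies at chr16:58727910-58734247, the place of Cldnd1 in RefSeq, and the row named Cldn26 at that of Tmem114, so neither is read as a classical claudin. Cldn25 had 3536, 4720 and 3600 luminal and 948, 1015 and 1058 blastocyst counts and was called in no comparison within a tissue. Dsg1a, Dsg1b and Dsg1c are near copies with 0 to 4 counts a library, and reads could have been split between them. The exons of Gjd2, under the count minimum, overlap those of A530058N18Rik.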

How the data were processed

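The authors made SMART-seq v4 libraries, aligned reads to GRCm38/mm10 with HISAT2 and counted them per gene with featureCounts (Subread 2.0.0). The deposited values were whole-number counts, although the study's methods call them RPKM. Settings for strand and multimapping and the annotation release were not given in the sources used here. Groups came from the labels.

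TMM scaling (edgeR 4.0.16 in R 4.3.3) was applied to the counts within a tissue, or over all 6 libraries for the tissue comparison, and RPKM used the deposited exon lengths. Genes needed 10 counts summed over the libraries scaled together. Ratios had exact 95% Clopper-Pearson intervals (SciPy 1.17.1), and medians used log2 of CPM with a pseudocount of 2. With 1 library per group no test of conditions was possible, and the rule compares libraries. It was run on simulated counts that held counting error only, the error the rule assumes, so that run does not cover other spread. Genes named were those called within a tissue, the leading members of each class and a list of members with known roles. Members, lists and motifs were chosen with earlier results of these data known. Positions and 90 gene types came from the tables and GENCODE M21. Alternatives were other library sizes, count minimums, limits, pseudocounts, an assumed dispersion, uncertain genes left out and levels not per length. A few genes that entered every count and sum are not reported here by name, in text or figures.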

Additional observations from a re-analysis of the deposited data

How the results depend on the processing

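No paired analysis was possible because each group was 1 library, and no library could be left out. With total counts as library sizes the median over all luminal genes for rLif-treated eKO against control moved from 0.007 to -0.108, and that of the junction genes to -0.15. Under that scaling Cdh5 (1.17 and 1.15) and Gjb5 (1.05, rLif-treated eKO against control) were no longer called, and Dsp (-1.13, rLif-treated against untreated eKO) was called. Between the tissues Cldn19 (1.96) and Cdh5 (1.36) were no longer called. No other junction gene changed its call in the 7 comparisons under that scaling or under DESeq2 size factors. The number of junction genes called depended on the limit. At a log2 limit of 0 it was 45, 37 and 45 in the luminal comparisons (eKO to control, rLif to eKO, rLif to control) and 30, 28 and 38 in blastocysts. At a limit of 2 it was 6, 6 and 2, then 0, 1 and 1, and 28 between the tissues. With an assumed dispersion of 0.1 (edgeR exact test) it was 10 for luminal eKO against control, 2 for luminal rLif-treated eKO against control, and 0, 0 and 1 in blastocysts. With at least 50 counts, which removes low genes, it was 1 for blastocyst eKO against control and 3 for rLif-treated eKO against control. Summed levels in CPM instead of RPKM gave log2 ratios of eKO to control of -0.18 (claudins), -0.27 (desmosomal plaque) and -1.56 (connexins), and of rLif to eKO of 0.29 (claudins), -0.16 (tight junction membrane and plaque), 0.11 (desmosomal plaque) and 2.29 (connexins). Neither log2 ratios of called genes nor summed levels changed direction under the alternatives tried for them. Medians near 0 did: that of luminal rLif-treated against untreated eKO went from 0.004 to -0.06 with total counts, and that between the tissues from -0.02 to 0.06 with at least 50 counts. Depth limits the genes under about 50 counts, whose intervals span several fold.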
